A study of Drosophila melanogaster with 2 samples.

Results

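Binding of Kahuli (Kah) inside introns, far from the start of any protein-coding gene, was described here from ChIP-seq of whole *Drosophila melanogaster* embryos. The set consisted of 389 of the 4105 peaks that the authors kept by the irreproducible discovery rate (IDR), which compares how replicates rank their peaks. A peak entered the set when its summit, the position of highest signal, lay inside a protein-coding gene, in no exon of any annotated transcript, and more than 5000 bp from every transcription start site (TSS) of a protein-coding gene. These are called far intronic peaks. They made up 9.48% of IDR peaks (exact Clopper-Pearson 95% interval 8.60 to 10.4%), while 18.1% of the pooled candidates more than 500 bp from every IDR summit were far intronic. The choice used position and the IDR list, and no sequence.

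Kah is a zinc finger transcription factor of the Snail family. Snail-family proteins bind E-box DNA with the core CAGGTG and are best known as repressors, among them Snail itself, which holds back neural genes in the embryonic mesoderm. Kah is expressed downstream of the receptor tyrosine kinase Alk in the founder cells of the visceral mesoderm, the layer that forms the gut muscle. Introns far from a promoter often hold enhancers, short stretches of DNA that transcription factors bind and that act on a promoter at a distance.

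The study held 1 group of 2 biological replicates. Both came from embryos of 0 to 16 h, males and females pooled, of the strain kah-GFP, a transgenic line that stably expresses Kah with GFP fused to its C terminus, so a peak averages over all cells and ages and says nothing of which cells bound it. The labels give the antibody as kah and the assay as transcription factor ChIP-seq, while the description of both libraries names an input control, and the lists were analysed as ChIP-seq peaks. Each replicate had 30000 candidate peaks and a further 30000 were called by the authors on both replicates together (the pooled list). Signal here means the authors' peak caller's own value for a peak, whose scale the sources used here do not give. Read depth is unknown, and the intervals cover counting error only.

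In all, 4995 of the pooled candidates lay far inside introns, and 7.79% of them were IDR peaks, against 13.7% of all 30000 pooled candidates. The 4497 that lay more than 500 bp from every IDR summit served as background candidates. The lowest far intronic peak had a pooled signal of 149.8 and the highest background candidate 149.6, so the comparison of both sets is one of high with low signal. At the distance limit, the nearest members were in introns of shn (5017 bp from a TSS, signal 149.8) and NetB (5020 bp, 234), and the nearest intronic peaks left out were in cno (4988 bp, 152) and Pde11 (4997 bp, 152).

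Sequences of 8 strong far intronic peaks with a CAGGTG within 50 bp of the summit are shown first, because this is the word that Snail-family proteins are known to bind. Each run is 101 bp of the plus strand of the dm6 (Release 6) assembly with the summit in the middle. Capitals mark CAGGTG or its reverse complement CACCTG, and CAAGTG or its reverse complement CACTTG.
Shab (chr3L:2906546-2906646): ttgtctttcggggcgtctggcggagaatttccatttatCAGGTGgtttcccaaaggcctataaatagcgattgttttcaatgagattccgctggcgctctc
CG15431 (chr2L:4418187-4418287): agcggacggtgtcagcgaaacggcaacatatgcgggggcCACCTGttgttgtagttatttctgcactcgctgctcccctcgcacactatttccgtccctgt
Glut4EF with CG46467 (chr3R:9886589-9886689): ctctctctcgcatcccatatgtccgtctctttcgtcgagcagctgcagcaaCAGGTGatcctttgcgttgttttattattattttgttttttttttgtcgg
Hr4 (chrX:1947699-1947799): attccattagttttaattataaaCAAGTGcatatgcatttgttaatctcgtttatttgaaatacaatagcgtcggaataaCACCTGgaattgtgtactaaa
Fur1 (chr3R:25453183-25453283): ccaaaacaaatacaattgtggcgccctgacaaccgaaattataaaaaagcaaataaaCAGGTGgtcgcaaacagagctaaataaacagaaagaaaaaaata
CG8312 (chr3R:9602262-9602362): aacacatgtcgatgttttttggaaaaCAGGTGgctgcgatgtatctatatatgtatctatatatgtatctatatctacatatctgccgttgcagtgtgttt
AdamTS-B (chrX:5706212-5706312): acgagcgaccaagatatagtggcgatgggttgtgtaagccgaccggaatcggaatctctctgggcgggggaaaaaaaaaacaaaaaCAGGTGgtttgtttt
Sp1 (chrX:9749858-9749958): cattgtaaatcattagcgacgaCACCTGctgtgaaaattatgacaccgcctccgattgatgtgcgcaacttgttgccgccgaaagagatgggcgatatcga

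In all but 2 of these 8 the centre of the core lay within 30 bp of the summit, the exceptions being Hr4 and AdamTS-B. Hr4 also held a CAAGTG on the other side of its summit. Shab encodes a voltage-gated potassium channel and Hr4 a nuclear receptor of the ecdysone response. Fur1 encodes a furin protease, AdamTS-B an extracellular protease and Sp1 a zinc finger transcription factor.

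Other peaks of the highest signal held neither word. The 6 below, all among the strongest 15, are shown with their base composition.
osa (chr3R:17700531-17700631): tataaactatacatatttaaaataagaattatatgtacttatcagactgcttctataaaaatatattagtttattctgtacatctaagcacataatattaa
Gug (chr3L:8458283-8458383): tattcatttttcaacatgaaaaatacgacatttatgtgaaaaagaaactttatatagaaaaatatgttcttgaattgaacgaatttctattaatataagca
Tis11 (chrX:12666542-12666642): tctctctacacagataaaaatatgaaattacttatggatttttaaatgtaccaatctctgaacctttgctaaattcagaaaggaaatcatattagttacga
simj (chr3L:10682942-10683042): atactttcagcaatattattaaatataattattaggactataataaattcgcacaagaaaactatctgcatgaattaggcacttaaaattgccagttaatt
InR (chr3R:21613427-21613527): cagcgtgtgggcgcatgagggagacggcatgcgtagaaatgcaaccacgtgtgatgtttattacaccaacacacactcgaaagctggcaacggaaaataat
JIL-1 (chr3L:11084703-11084803): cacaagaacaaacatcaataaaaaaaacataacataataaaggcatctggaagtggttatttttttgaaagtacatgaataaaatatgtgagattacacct

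The windows of osa, Gug, simj, JIL-1 and Tis11 had a GC content of 18.8%, 20.8%, 24.8%, 26.7% and 27.7%, and that of InR 49.5%. Among the windows with CAGGTG, that of CG15431 had 56.4% and that of Hr4 28.7%.

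The strongest far intronic peak of all was in the first intron of sbb, a transcriptional corepressor gene on 2R, 20112 bp from its TSS. Its signal was 1104 in the pooled list, 564 in replicate 1 and 541 in replicate 2. It ranked 111th of all IDR peaks by signal. Shab followed with a pooled signal of 977, at 416 and 561 in the replicates, and then spin, which encodes a lysosomal transporter, with 977. Hr3, a nuclear receptor gene of the ecdysone response that overlaps CG46321 and CG12912 there, had 893, with 496 in replicate 1 and 400 in replicate 2. Next came 2 chromatin genes, osa of the Brahma remodelling complex (888) and the Atrophin corepressor gene Gug (862).

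The remaining 9 of the strongest 15 had pooled signals from 658 to 836. They were in introns of the mRNA decay factor gene Tis11 (836), the nucleosome remodelling subunit gene simj (819), the Notch coactivator gene mam (817) and the neuronal surface receptor gene Dscam1 (762). Below them were CG15431 (734), the insulin receptor gene InR (710), the histone kinase gene JIL-1 (678), the muscle attachment gene Tsp (662) and Glut4EF with CG46467 (658). Of these 15 peaks, 3 had CAGGTG within 50 bp (Shab, CG15431 and Glut4EF). The osa summit lay 160 bp from the start of the non-coding gene lncRNA:CR46036, so far from a protein-coding TSS did not always mean far from any start.

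**Figure D1:**
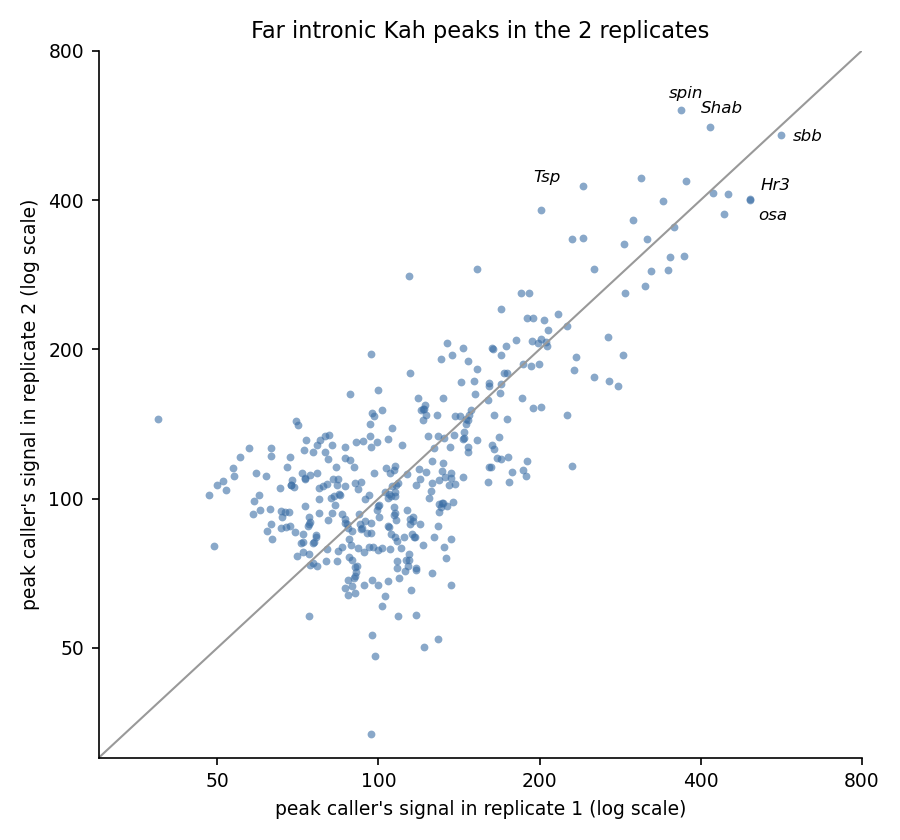
Signal of the far intronic peaks in replicate 1 (x axis) and replicate 2 (y axis), both on log scales in the peak caller's own units; each point is 1 of the 372 peaks with a candidate within 100 bp in both replicates and the line marks equal values. The strongest peaks (sbb, Shab, spin, Hr3, osa) lie high in both replicates, and most of the others crowd near the medians of 108 and 109.

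Both replicates listed most of these regions. A candidate within 100 bp was present in replicate 1 for 378 of the 389 peaks, in replicate 2 for 383, in both for 372 and in neither for 0. The median signal of the matched candidates was 108 in replicate 1 and 109 in replicate 2, and 78.0% of the 372 lay within 1.5-fold of the median ratio between replicates over all IDR peaks. The SD of the log2 ratio was 0.49, which is 1.40-fold. The peaks farthest apart were 1 shared by Mi-2 and Su(Tpl), at 38.8 in replicate 1 and 144 in replicate 2, and a peak of tara, at 97.0 and 33.5. The IDR selection rests on these same replicates, so their likeness is given as a description. The recovery given next also uses the signal in each replicate, and the classes differ in signal. Its tests therefore cannot tell agreement between replicates from signal strength. Within the 4105 highest-signal candidates of each replicate, 66.3% of far intronic peaks were found in both (61.4 to 71.0%), against 70.8% of IDR peaks within 500 bp of a TSS (promoter peaks), 71.1% of intronic peaks 501 to 5000 bp from a TSS and 70.4% of intergenic peaks. None of the 3 differences passed the test (odds ratio 0.814, interval 0.646 to 1.03, against promoter peaks; 0.800, 0.622 to 1.03, against nearer intronic peaks; 0.828, 0.619 to 1.11, against intergenic peaks; two-sided Fisher's exact adjusted p = 0.135, 0.135 and 0.207).

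Far intronic peaks had a lower median signal than promoter, nearer intronic and intergenic peaks. Their pooled signal had a median of 208 and ran from 149.8 to 1104, with quartiles of 176 and 288, and 258 of the 389 lay within 100 units of the lowest. The median was 248 over 2072 promoter peaks, 226 over 980 nearer intronic peaks and 223 over 456 intergenic peaks. The difference in median log2 signal was -0.26 against promoter peaks, -0.13 against nearer intronic peaks and -0.10 against intergenic peaks (two-sided permutation test, p adjusted over 3 classes 3e-05, 0.00643 and 0.0173; the first is the smallest the permutations can give). Without replicate 1 the difference to intergenic peaks was -0.087 and its permutation p 0.0656, and without replicate 2 it was -0.063 with 0.270. It also did not pass with far set at 3000 bp (permutation p = 0.0676), with TSSs of all genes (0.0689) or among IDR peaks above the median signal (0.288). Without replicate 2 the difference to nearer intronic peaks was -0.086 with a permutation p of 0.128, and among IDR peaks above the median signal it was -0.017 with 0.762. Of the far intronic peaks, 14.9% were among the 1000 strongest IDR peaks, against 28.9% of promoter peaks.

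Distance from a TSS went with a lower share of candidates that were IDR peaks. Among all intronic candidates of the pooled list, 24.8% (557 of 2249) within 500 bp of a TSS were IDR peaks, 10.4% at 2000 to 5000 bp, 8.88% (220 of 2477, interval 7.79 to 10.1%) at 5000 to 10000 bp and 6.79% (117 of 1724, 5.64 to 8.08%) at 10000 to 20000 bp. The share was 6.99% (50 of 715, 5.23 to 9.12%) at 20000 to 50000 bp, which overlaps its neighbour. Over 50000 bp it was 2.53%, from only 2 peaks, in Sema1a at 59547 bp and in the homeodomain gene hth at 76901 bp. Inside the far class, the peaks lay a median of 9066 bp from a TSS (quartiles 6717 and 14073) and the background candidates 10161 bp (7107 and 15942), a difference of -0.05 in median log10 distance (two-sided permutation p = 0.00374). With far set at 10000 bp the difference was -0.033 and did not pass (permutation p = 0.0808), nor did it against the 389 strongest background candidates (-0.029, permutation p = 0.248). Of the peaks, 169 lay over 10000 bp away and 52 over 20000 bp.

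**Figure D2:**
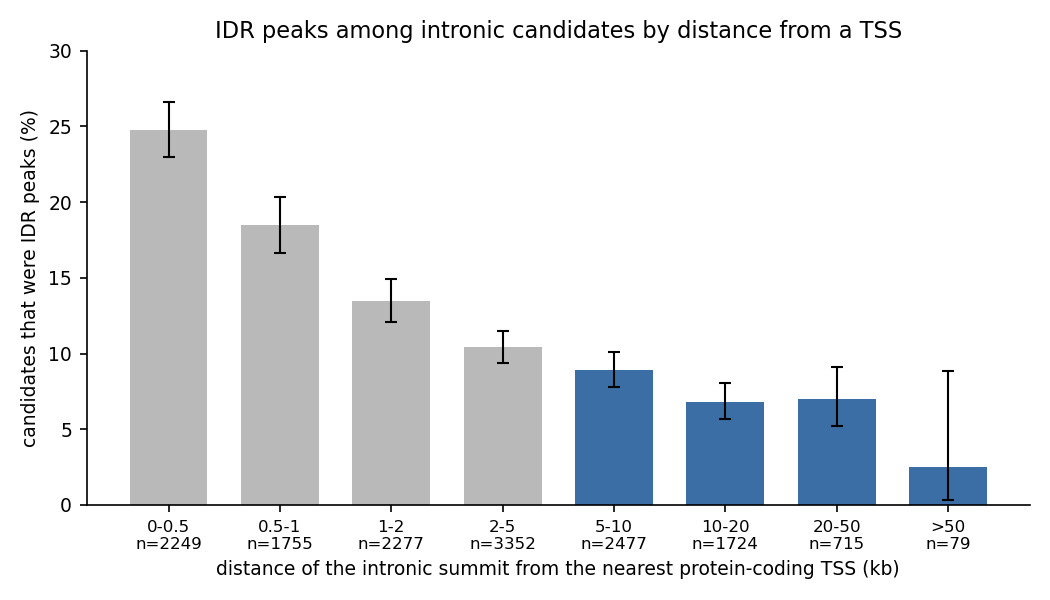
Percent of the intronic pooled candidates that were IDR peaks (y axis) by the summit's distance from the nearest protein-coding TSS in kb (x axis); n is the number of candidates, error bars are exact 95% intervals and blue bars are the far class. The share falls from 24.8% within 0.5 kb to 8.88% at 5 to 10 kb.

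Within their genes the peaks leaned to the first intron. The summit lay in the first intron of a transcript of its host for 219 of 389 peaks (56.3%, interval 51.2 to 61.3%) and for 2125 of 4497 background candidates (47.3%, 45.8 to 48.7%), an odds ratio of 1.44 (1.17 to 1.77, two-sided Fisher's exact p = 0.000696). Against only the 389 strongest background candidates the odds ratio was 1.36 (exact p = 0.0373). The introns were of similar length, with a median of 17395 bp at peaks and 17814 bp at background candidates. The nearest protein-coding TSS belonged to the host itself for 283 peaks and to another gene for the rest. A single protein-coding gene held 371 of the peaks and overlapping genes 18. By arm, the density was 19.8 peaks per Mb of far intronic sequence on 2L (83 peaks), 15.2 on 3L, 14.4 on X, 12.2 on 3R and 12.1 on 2R, against 14.2 over all 27.3 Mb. Of far intronic candidates, 9.13% were IDR peaks on 2L, 7.68% on X, 7.55% on 3R, 7.54% on 3L and 7.29% on 2R. Chromosome 4 had 0 peaks among 21 far intronic candidates, which allows a share of up to 14.3%. Of the 389 summits, 22 had another within 300 bp, so some neighbouring summits may share fragments, and 131 had another within 5000 bp.

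The start of a non-coding gene lay within 500 bp of 7 peaks (1.80%, 0.726 to 3.67%) and of 49 background candidates (1.09%). The odds ratio of 1.66 had an interval of 0.748 to 3.70 and did not pass the test (Fisher's exact p = 0.209). Besides osa, the 7 included peaks in DIP-alpha, Socs36E, Hipk, spir and puc at lncRNA genes.

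CAGGTG was more frequent at far intronic peaks than at background candidates. It lay within 50 bp of 36 of the 389 summits (9.25%, interval 6.57 to 12.6%) and of 4.49% of the background (odds ratio 2.17, 1.50 to 3.14, two-sided Fisher's exact p adjusted over 27 motifs = 0.00109). The form with A before it, ACAGGTG, was at 16 summits (4.11% against 1.89%, odds ratio 2.23, 1.29 to 3.84, exact adjusted p = 0.0469). The related word CAAGTG was no more frequent, at 36 summits and 9.25% against 9.16% (1.01, 0.707 to 1.45, exact adjusted p = 1). CAGGTG or CAAGTG was present at 69 of the 389 and both at 3, so most peaks held neither.

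The site stood close to the summit. Of the 36 peaks with CAGGTG, 28 had it within 25 bp (77.8%), at a median of 13.5 bp from the summit. In the background 113 of 202 (55.9%) had it within 25 bp, at a median of 23.5 bp. The density was 1.44 sites per kb in the 25 bp on each side of far intronic summits, against 0.498 and 0.551 in the background. With windows of 25 bp the odds ratio was 3.48 (exact adjusted p = 9.87e-06), and with windows of 100 bp it was 1.54 and did not pass (exact adjusted p = 0.0773).

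**Figure D3:**
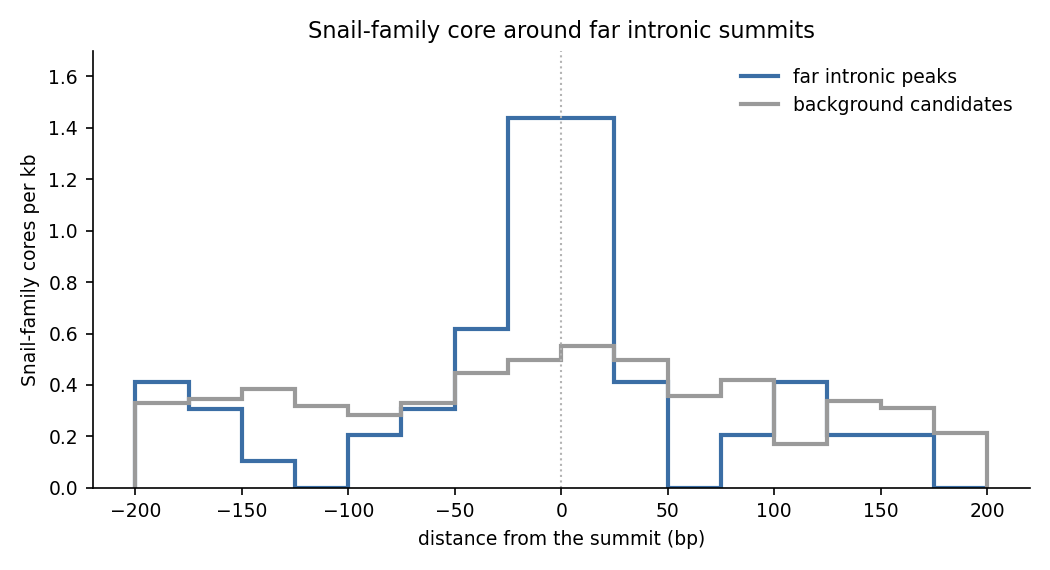
Density of the Snail-family core in sites per kb (y axis) in bins of 25 bp by distance from the summit (x axis), at far intronic peaks (blue) and background candidates (grey). The blue line reaches 1.44 sites per kb in the 25 bp on each side of the summit, where the grey line is at 0.498 and 0.551.

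The share of summits with CAGGTG was highest where the signal was highest. It was 10.8% (6.79 to 16.0%) in the 195 far intronic peaks of higher signal, 7.73% (4.39 to 12.4%) in the 194 of lower signal, 6.43% (4.20 to 9.34%) in the 389 strongest background candidates, 5.10% in the next 1000 and 3.90% in the weakest 1000. The intervals given for neighbouring groups overlapped. Against the 389 strongest background candidates alone the odds ratio was 1.48 and did not pass the test (exact adjusted p = 1). Among far intronic peaks, the 36 with the site had a median signal of 227 and the 353 without it 207, a difference of 0.13 in median log2 signal (two-sided permutation p = 0.175). With 1 replicate left out this difference is given by size only, and it rose to 0.31 without replicate 2 and 0.22 without replicate 1. Among the 169 peaks over 10000 bp from a TSS, 19 of them with the site, it was 0.51 (permutation p = 0.00187). It did not pass with far set at 3000 bp (0.14, permutation p = 0.148), with TSSs of all genes (0.14, 0.199) or among IDR peaks above the median signal (0.07, 0.719). Nor did it pass with windows of 25 bp (0.07, permutation p = 0.531) or 100 bp (0.13, 0.130).

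The site was about as frequent as in promoter, nearer intronic and intergenic IDR peaks. CAGGTG lay within 50 bp of 9.70% of promoter peaks, 9.90% of nearer intronic peaks and 7.89% of intergenic peaks. The odds ratios of far intronic peaks against these were 0.949 (0.654 to 1.38), 0.928 (0.621 to 1.39) and 1.19 (0.734 to 1.93), all with a Fisher's exact adjusted p of 0.852. The remaining 208 IDR peaks, which belong to none of these classes, had it more often, at 35 summits (16.8%). Their difference from far intronic peaks (9.25%) was not tested.

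Base composition also differed. The 101 bp around far intronic summits had a mean GC content of 36.8% (SD 10.2 over 389 peaks) and the background 40.9% (SD 9.47), a difference of -4.08 percentage points (two-sided permutation p = 1e-05, the smallest that 100000 permutations can give). Against the 389 strongest background candidates the difference was -1.67 points (permutation p = 0.0250). Motif shares are therefore also given within 5 classes of GC content, where CAGGTG had an odds ratio of 2.97 (exact Cochran-Mantel-Haenszel test, adjusted p = 1.24e-05).

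Of the 27 listed motifs, 4 were more frequent at far intronic peaks (14.8% of those tested) and 1 less frequent (3.7%). Beside the 2 Snail-family words these were AT-rich. TATTTA, a core like that of the muscle factor Mef2, was at 26.5% of summits against 17.9% (odds ratio 1.65, 1.30 to 2.09, exact adjusted p = 0.00103), and TAAACA, bound by forkhead factors, at 20.8% against 12.7% (1.80, 1.39 to 2.34, 0.000653). Within GC classes TATTTA no longer passed (1.21, exact adjusted p = 0.386), while TAAACA did (1.62, 0.00413) and so did AGGTGG, part of the CTCF site (2.04, 0.0180). With p adjusted over all 2080 6-mers in place of the 27 motifs, TAAACA did not pass within GC classes (exact adjusted p = 0.156). AGGTGG overlaps the end of CAGGTGG and was at 6.68% against 4.45% without GC classes (1.54, exact adjusted p = 0.222). The word that was less frequent was the shuffled control GACGTG, at 0 of 389 summits, which allows a share of up to 0.771% by the floor of 3 counts and 0.944% by the exact 95% interval, against 1.38% (exact adjusted p = 0.0469), and it did not pass within GC classes (exact adjusted p = 0.141).

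The other motifs did not pass. GATA factors' AGATAA was at 9.77% against 6.56% (1.54, exact adjusted p = 0.0928), the GAGA factor word GAGAGA at 7.20% against 5.38% (1.36, 0.399) and the nuclear receptor half-site AGGTCA at 2.83% against 1.69% (1.69, 0.366). CAGGTA of the early activator Zelda was at 1.80% against 1.89% (0.951), the homeodomain core TAATTA at 8.74% against 7.92% (1.11) and TGATTA of homeodomain proteins with a Pbx-type partner at 4.88% against 6.56% (0.731). For the Sox word ACAATG the odds ratio was 1.01, for the Ets word GGAAGT 0.825, for ATCAAAG of TCF 0.471 and for GTGGGAA of Suppressor of Hairless 0.547. It was 1.12 for the M1BP core GTCACA, 0.662 for the DREF core ATCGAT and 0.623 for the Grainyhead core AACCGG. E-boxes of other kinds, CATATG (1.42), CACATG (1.04), CAGCTG (0.982) and CACGTG (0.782), and the controls GTGGAC (0.703), GGGGGG (0.815) and ACACAC (0.975) were also below the threshold. All words were sought on both strands, and the background share stands beside each as the measure of how often a far intronic window held it. Against the 389 strongest background candidates 0 of the 27 motifs passed.

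**Figure D4:**
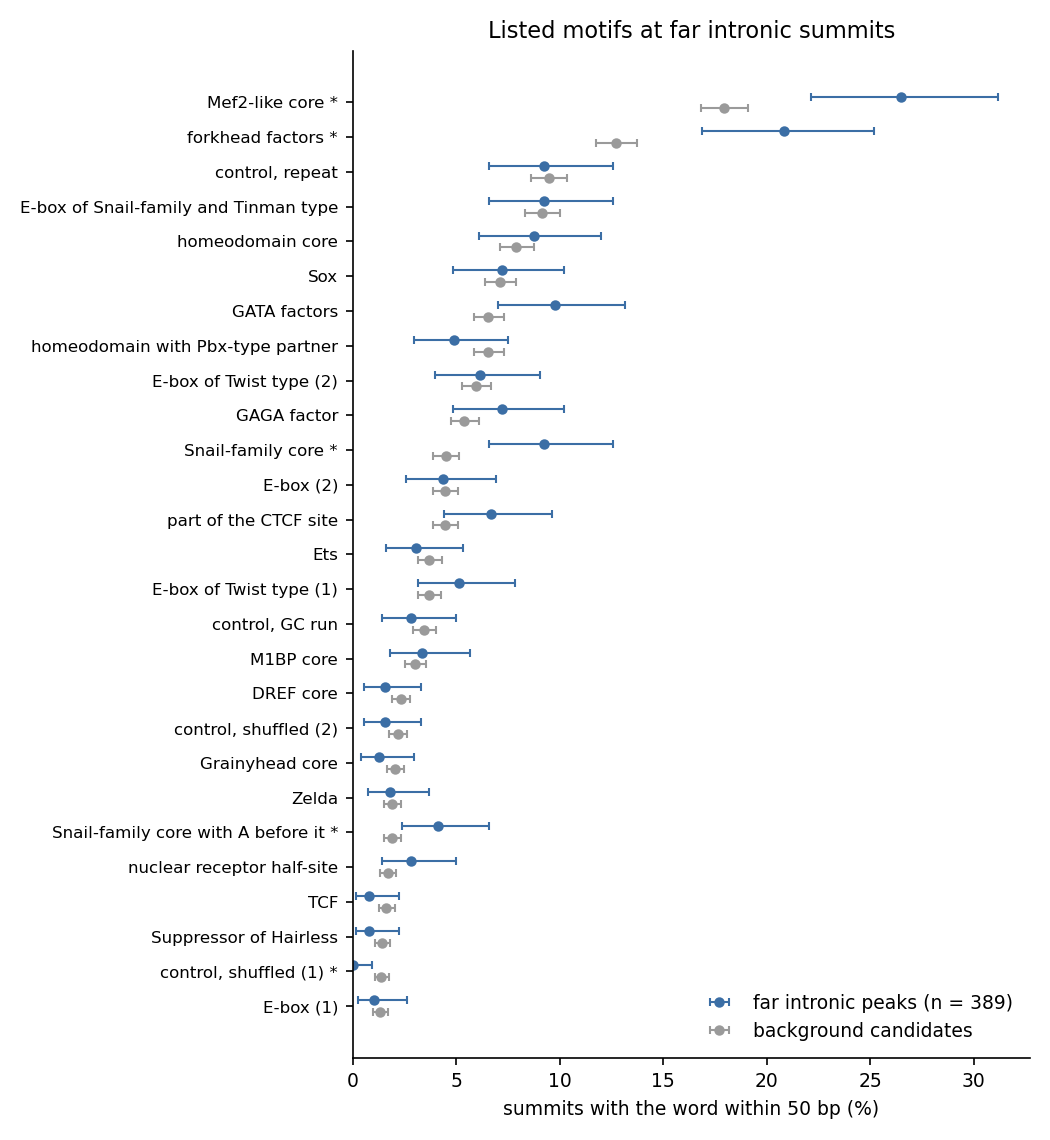
Percent of summits with each listed motif within 50 bp (x axis), named by factor, at far intronic peaks (blue) and background candidates (grey), with exact 95% intervals; an asterisk marks an adjusted p under 0.05 by Fisher's exact test. The Snail-family core stands at 9.25% against 4.49%, the Mef2-like core at 26.5% against 17.9% and the forkhead word at 20.8% against 12.7%.

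With no motif given, 21 of all 2080 6-mers were more frequent at far intronic peaks (1.01%) and 0 were less frequent (0%) at an adjusted p under 0.05, by Fisher's exact test. At an unadjusted p under 0.05 they numbered 133 and 121. The words of smallest p were AT-rich. TATAAA led, at 23.7% of summits against 13.7% (odds ratio 1.94, exact adjusted p = 0.00123), then ATATTA with an odds ratio of 2.07, TTTAAA with 2.02 and AATATT with 1.95. After these came ATATAA with an odds ratio of 1.85, the forkhead word TAAACA again with 1.80 and AACTAT with 2.06. The last of the leading 10 were TAAATA, the reverse complement of TATTTA, with an odds ratio of 1.65, AAATAT with 1.61 and TATCAA with 1.99. CACCTG, the reverse complement of CAGGTG, came next. Within GC classes 3 words passed. Both CACCTG (2.97, exact adjusted p = 0.000958) and ACAGGT (2.70, 0.00419) were also among the 21, ACAGGT with an odds ratio of 2.15 there, and CGAGAG (3.12, 0.00419) was not (2.26, exact adjusted p = 0.0525). The words of smallest p among those less frequent were GGAGGA (0.514% against 3.31%, exact adjusted p = 0.0530), ACTCCG and CAGGAC (both at 0 summits against 2.02%), GAAGGA (odds ratio 0.215), CCTGGC (0.212), TGGCCA (0.361), CCAGGC (0.168), AGCCTG (0.103), AGCCAA (0.465) and GATGGA (0.345), none past the threshold.

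The peaks fell in 254 protein-coding genes. These were 28% of the 906 genes with at least 1 far intronic candidate of any signal. Of the hosts, 152 had 1 peak, 87 had 2 or 3, and 15 had 4 or more, which together held 67 of the peaks. Long genes offer more far intronic sequence, and 20.5% of the 302 shortest of the 906 genes hosted a peak, against 37.7% of the 302 longest.

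The corepressor gene sbb had 7 peaks with signals from 152 to 1104, all in its first intron and all within 11102 bp of each other. In tara, a trithorax-group regulator of the cell cycle, 7 peaks ran from 151 to 621, and CG42238 had 6 from 177 to 304. Hr4, with 5 peaks from 164 to 576 over 36650 bp, is a nuclear receptor gene, as is ftz-f1 with 5 peaks from 153 to 218, and rdx, a ubiquitin ligase adaptor of Hedgehog signalling, had 5 from 191 to 368. Those with 4 peaks were the bHLH factor gene crp (178 to 568), the kinase gene Raf (194 to 484), the Ski-family corepressor gene Snoo (202 to 351), EcR, which encodes the ecdysone receptor (152 to 345), and the Hox gene Antp, whose peaks are also in CG46458 (161 to 288). They also included the histone methyltransferase gene gpp (188 to 286), the Myc antagonist gene Mnt (160.0 to 215) and the adhesion gene ed (152 to 188).

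**Figure D5:**
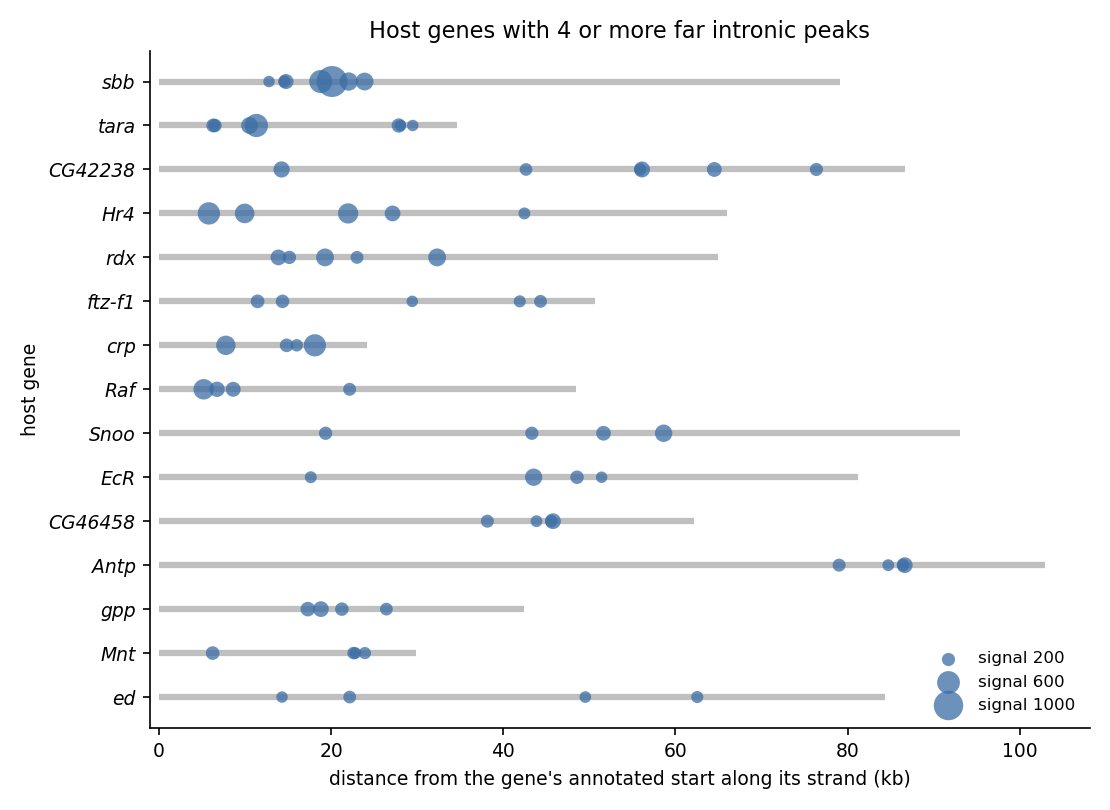
Host genes with 4 or more far intronic peaks, each drawn as a grey bar from its annotated start (x axis, kb along the gene's strand), with a blue disc for each peak whose area grows with the pooled signal. The 7 peaks of sbb form 1 group, while the 6 of CG42238 are spread over 62121 bp.

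Hosts also had promoter peaks more often than other genes. An IDR peak lay within 500 bp of a TSS in 118 of 254 hosts (46.5%, 40.2 to 52.8%) and in 186 of the 652 other genes with a far intronic candidate (28.5%, 25.1 to 32.2%). Among the 302 shortest genes the shares were 45.2% against 26.2%, among the middle 302 they were 44.9% against 29.5%, and among the 302 longest 48.2% against 30.3%. These shares were chosen after the data were seen. Of the hosts with most peaks, sbb, Hr4, rdx, ftz-f1, Snoo and EcR had a promoter peak, and tara, CG42238, crp, Raf, Antp, gpp, Mnt and ed did not.

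Of 16 nuclear receptor and ecdysone response genes with a far intronic candidate, 9 hosted 25 peaks, beside the 28% of all 906 genes that were hosts. Beside Hr3, Hr4, EcR and ftz-f1 these were Eip75B, a nuclear receptor gene with 3 peaks (strongest signal 449), and E23, Eip74EF, Eip63E and tai. The median length of the 16 was 55679 bp, and any part of length in their share was not tested. Of 11 genes of Dpp signalling, the fly BMP pathway, 10 hosted 19 peaks. They included the ligand gene dpp itself, the extracellular antagonist sog and the modulators dally, dlp and cv-2 (340.4, with CAGGTG within 50 bp), the intracellular inhibitor Dad (strongest signal 414, at 232 and 182 in the replicates), Snoo, and the nuclear factors shn, bi and tup. The strongest dpp peak was at 282, with 147 in replicate 1 and 144 in replicate 2.

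In other signalling pathways, 7 of 12 EGFR and FGF genes were hosts, led by the secreted inhibitor aos, in an intron it shares with CG33158 (552), the Ets factor pnt (302) and the ligand vn (298). For Wnt signalling it was 6 of 14, led by the receptor genes fz (418) and fz2 (284) and the glypican gene dlp (405), which also stands in the Dpp and Hedgehog lists. Hippo had 4 of 7 (kibra 194, ex 192, wts 166 and Mob2), Hedgehog 2 of 6 (dlp and rdx), and Notch 2 of 9, mam and the receptor gene N (293).

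Of 13 muscle structure and attachment genes 4 were hosts, with Tsp (662), Dys, which encodes dystrophin (338), and Msp300, a nuclear envelope anchor (242), the strongest. Among mesoderm and muscle regulators it was 3 of 16, namely the RNA-binding factor how (301), Mef2 (227, at 132 and 97.8 in the replicates) and tup (176). In the list of Alk signalling and myoblast fusion 1 of 9 hosted peaks, kirre, the founder cell adhesion receptor, with 3 peaks at 208, 168 and 153. The Snail-family list had 0 genes with a far intronic candidate of any signal.

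In the nervous system lists, 17 of 58 axon guidance and adhesion genes were hosts, led by Dscam1 (762), beat-IIIc (651) and the guidance ligand NetA (354), and 3 of 22 ion channel and receptor genes, Shab (977), Ca-beta (197) and Shal (155). The BTB and neural differentiation list had 9 of 26, with mam, the translational repressor pum (324) and how leading. Patterning and homeodomain factors had 8 of 28, led by ct (424), Antp (288) and bab1 (272). Glial genes had 2 of 4 (pnt and cv-c, 187), tracheal and salivary gland genes 2 of 7 (pyd 194, bnl 161) and cadherins and polarity genes 4 of 16 (fz, Fas3 304, stan 188). All these counts stand against 28% over all 906 genes, a share not matched for gene length, and no test was made over the lists. By list, the median length ran from 22516 bp (mesoderm and muscle regulators) to 58772 bp (cadherins and polarity). The share of hosts was 20.5% in the shortest 302 of the 906 genes and 37.7% in the longest 302.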

How the data were processed

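The deposited narrowPeak lists (dm6) hold, per the file listing, candidates for each replicate, candidates called by the authors on both replicates together, and the IDR list. The signal column is the authors' peak caller value, while the sources used here do not name its scaling, the caller, the aligner or the IDR threshold. Also deposited, the −log10 q-value column in the deposited lists is capped and was not used for ranking. No read counts are in these lists, so depth is unknown, and the IDR peaks are the pooled candidates of highest signal. Fragments were 200 to 800 bp by sonication, per the labels. Signal tracks were not used here. Replicate numbers come from the labels.

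Summits (1-based) were placed on Ensembl release 115 genes, and sequence was read from Release 6. A motif was scored as found or not in the 101 bp centred on the summit, both strands searched. Fisher's exact tests (two-sided) compared shares, with Wald 95% intervals (0.5 added where a cell was 0), the exact Cochran-Mantel-Haenszel test did so over 5 GC classes, and 100000 permutations compared medians or means (Python 3.11.15, SciPy 1.17.1, numpy 2.4.6, pandas 2.3.3). Adjustment was by Benjamini-Hochberg, at 0.05. Where 1 replicate was left out, the 4105 highest-signal candidates of the other replicate stood in for the IDR peaks. Tests were tried on simulated data. Summits are not replicates, so tests describe the listed regions and not new embryos.

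The peaks, 27 motifs and 19 gene lists were chosen with earlier results of these data known. The result of 1 list is not reported here, and vn, an EGFR ligand gene, was taken out of the cadherin and polarity list after its result was seen. Named were the 15 strongest peaks, hosts with 4 or more peaks, the 8 strongest with CAGGTG (the sequences shown, with none from arm 2R, leave out cv-2 and hold the ninth, Sp1), up to 3 hosts a list, all motifs and the 10 6-mers of smallest p in each direction. The remaining hosts of the steroid, Dpp and Hippo lists, the most discordant peaks, the 3 6-mers past the threshold within GC classes and the peaks at non-coding starts were named after their values were seen. Sequences are shown over 101 bp, in place of a shorter stretch first planned, so that the window counted is whole.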

Additional observations from a re-analysis of the deposited data

How the results depend on the processing

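Of 138 values under alternatives, 105 kept their side of the threshold or, for counts, stayed within 1.5 times the count reported. Of all 138, 0 changed direction with either value past the threshold. The 105 include values that changed direction while passing in neither setting. An example is the recovery odds ratio against promoter peaks, 0.814 in the main setting and 1.93 among IDR peaks above the median signal. The odds ratio of CAGGTG stayed past the threshold except with 100 bp windows (1.54) and against the 389 strongest background candidates (1.48), and was 2.04 to 2.61 with 1 replicate left out. The 5 motifs past the threshold became 1 with far set at 10000 bp, 3 among IDR peaks above the median signal, 3 with 25 bp windows, 0 against the strongest background candidates, 3 with 1 summit per run of summits up to 300 bp apart (an alternative chosen after seeing the data) and 3 to 4 with 1 replicate left out. The 21 more frequent 6-mers became 49 with far set at 3000 bp, 0 at 10000 bp, 13 with TSSs of all genes, 0 among peaks above the median, 1 with 25 bp windows, 0 against the strongest background candidates, 3 within GC classes, 13 with 1 summit per run and 5 to 30 with 1 replicate left out. The 0 less frequent became 16 at 3000 bp, 8 with 100 bp windows and 1 to 17 with 1 replicate left out. The causes of these shifts were not tested.

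The signal difference to nearer intronic peaks was -0.017 among peaks above the median signal, where it did not pass, and -0.092 to -0.086 with 1 replicate left out. To intergenic peaks it was -0.079 at 3000 bp, -0.096 with TSSs of all genes, -0.081 above the median and -0.087 to -0.063 with 1 replicate left out, none of these past the threshold. Recovery against promoter peaks passed when summits matched within 250 bp (odds ratio 0.690, Fisher's exact adjusted p = 0.00853), though this test cannot tell agreement from signal strength. The signal difference with CAGGTG was 0.13 in the main setting, 0.51 at 10000 bp and 0.22 to 0.31 with 1 replicate left out. The log10 distance difference was -0.033 at 10000 bp and -0.029 against the strongest background candidates, neither past the threshold. No paired analysis was possible because there is 1 group. Unknown depth limits every comparison of signal.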
